A study of Mus musculus with 4 samples.

Results

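The genes of the mitochondrial respiratory chain were followed in 2 populations of mouse bone marrow progenitors. The set holds every probe set whose annotation names a single gene with a symbol that begins with Nduf, Uqcr, Cox4, Cox5, Cox6, Cox7, Cox8 or Atp5, or that is Sdha, Sdhb, Sdhc or Sdhd. The choice used symbols and no measured value. It gave 179 probe sets of 90 genes, out of 18193 genes with a single-gene probe set on the array. Complex I had 44 of these genes, complex II 4, complex III 8, complex IV 17 and complex V 17. A filter kept probe sets with a mean log2 intensity over all arrays of more than 7.23, the 50th percentile, and left 153 member probe sets of 85 genes among 22518 probe sets in all. The 26 member probe sets below that level are described at the end of the results on the chain.

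RNA was taken from LSK cells and MP cells. LSK cells lack mature lineage markers and carry c-Kit and Sca-1, and include the blood-forming stem cells along with multipotent progenitors. MP cells are lineage-negative and c-Kit-positive but lack Sca-1, and are the myeloid progenitors that the design sets as a control for LSK-enriched genes. WT mice were Smo flox/flox, Mx1Cre-, and Smo-deficient mice were Smo flox/flox, Mx1Cre+. Smo encodes Smoothened, the hedgehog signal transducer, and Cre is driven here by the Mx1 promoter, which responds to interferon and is active in many cell types. Both genotypes thus carried the floxed alleles, and both received intraperitoneal polyI:C, an interferon inducer, at 20 ug per g, 3 times on alternate days, with marrow taken 6 weeks later. Males and females were mixed, on a C57BL/6x129 background (the number closing the strain label counts up across the other 3 samples). Marrow of 4 mice per genotype was pooled before both populations were sorted, so each genotype is 1 pool and each of the 4 groups is 1 array. From each sample 20 ng of total RNA went through 2 cycles of amplification. With 1 array per group, the genotype differences are unreplicated and were not tested.

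The respiratory chain sits in the inner mitochondrial membrane. Complexes I and II pass electrons from NADH and succinate to ubiquinone, complex III hands them on to cytochrome c, and complex IV to oxygen, while complexes I, III and IV pump protons. Complex V, the ATP synthase, uses the proton gradient to make ATP. Most subunits are encoded in the nucleus and a few in mitochondrial DNA. Hematopoietic stem cells are known to rely strongly on glycolysis while quiescent and to raise oxidative metabolism as they commit. Promoters of nuclear respiratory chain genes are known for sites of NRF1 and of the ETS factor GABP.

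Promoters are shown for the genes of complexes II, III and IV whose levels the text turns on, to let their start sites be compared. Each window runs from 150 bases before to 10 bases after the start given by RefSeq in build GRCm38.p6, 5′ to 3′ on the gene's strand, which is the minus strand for all of them. Capitals mark a match to GCATGCGC (the core of the NRF1 motif) or to CCGGAAG (an ETS motif) on either strand. Uqcr11 is at chr10:80406812-80406971, Sdhd at chr9:50603840-50603999, Cox6b2 at chr7:4753085-4753244 and Cox7a2l at chr17:83514324-83514483.
Uqcr11: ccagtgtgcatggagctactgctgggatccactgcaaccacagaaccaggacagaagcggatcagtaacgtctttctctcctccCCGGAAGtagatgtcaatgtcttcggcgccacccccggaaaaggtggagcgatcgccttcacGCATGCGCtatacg
Sdhd: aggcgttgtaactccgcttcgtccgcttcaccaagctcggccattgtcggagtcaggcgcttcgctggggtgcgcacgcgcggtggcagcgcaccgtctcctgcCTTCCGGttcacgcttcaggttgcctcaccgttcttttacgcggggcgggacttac
Cox6b2: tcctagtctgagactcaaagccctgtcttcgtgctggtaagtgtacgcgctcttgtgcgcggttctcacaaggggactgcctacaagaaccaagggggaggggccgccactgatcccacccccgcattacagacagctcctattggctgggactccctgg
Cox7a2l: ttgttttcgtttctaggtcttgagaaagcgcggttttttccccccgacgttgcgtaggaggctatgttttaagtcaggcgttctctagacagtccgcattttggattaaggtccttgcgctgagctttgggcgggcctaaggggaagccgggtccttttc
The Uqcr11 window held both motifs, the Sdhd window held the ETS motif on the other strand, and these letters were not in the windows of Cox6b2 and Cox7a2l. Over the longer RefSeq promoters (250 bases before to 50 after the start) of 74 member genes, GCATGCGC was found in 11 of 79 promoters, 13.9%, and in 2.71% of all 32851 promoters. CCGGAAG was found in 19 of the 79, 24.1%, and in 8.86% of all promoters. Both stood in 5 of the 79 member promoters, 6.33%, and in 0.521% of all. Both motifs were searched on both strands and can overlap by 1 base. A match is a description of the letters and not a site.

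The arrays were checked before the chain was read. The Smo probe set 1427049_s_at had a log2 intensity of 10.81 on the WT LSK array and 6.13 on its Smo-deficient counterpart (25.7-fold apart), and of 10.40 and 6.36 on the MP arrays (16.5-fold apart). On 1427048_at the values were 10.02 and 6.96 in LSK (8.31-fold apart) and 9.72 and 7.94 in MP (3.43-fold apart). All of these Smo-deficient values except the last were below the level of the filter, so those folds depend on the background. Where the probes lie relative to the floxed exon was not analysed here. Of the LSK markers, Cd34, Flt3, Slamf1, Mecom and Procr passed the test as higher in LSK than in MP, by 1.06 to 3.78 on the log2 scale, and the myeloid genes Fcgr3 and Mpo passed as lower. Kit, used in both gates, was 0.22 above MP and did not pass. Sca-1, which separates the gates, was not read, since its gene Ly6a had no single-gene probe set. Poly-A spikes, which are added before amplification, were higher in LSK than in MP by a mean log2 difference of 0.44 (WT pool) and 0.59 (Smo-deficient pool). They lay at -0.15 (LSK) and -0.30 (MP) in Smo-deficient minus WT. Hybridisation spikes were also higher in LSK than in MP, by 0.08 (WT pool) and 0.49 (Smo-deficient pool). The Actb 3′ minus 5′ difference was 1.55 and 1.53 in LSK and 1.34 and 1.31 in MP, WT before Smo-deficient. Signals of the members were strong, with 116 of the 153 probe sets above the 90th percentile of all probe sets. A probe set's signal depends on its probes as well as its transcript, so levels are not compared between genes.

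Respiratory chain genes were slightly lower in LSK than in MP cells, in all 5 complexes. Of the 153 member probe sets, 26 passed the test as lower in LSK and 1 as higher. Among all probe sets past the filter 7.19% passed as lower and 15.1% as higher. The test was limma's moderated test, two-sided, with the pool as a block and Benjamini-Hochberg adjustment over all 22518 probe sets at 0.05. The differences were small: the median over members was -0.15 on the log2 scale against -0.00 over all probe sets and 0.00 over those above the 90th percentile of level, and 5 members were at least 1.5-fold lower (2.82% of all probe sets were) and 1 at least 1.5-fold higher (9.06% of all). With the block, 1 residual degree of freedom was left before moderation, and a median of 6.60 in total after it. A p-value or SE here joins the disagreement of 2 pools of different genotype in LSK minus MP with variance borrowed from other probe sets. Neither measures the spread between mice. Without the block only Cox6b2 passed as lower. Under quantile normalization 40 members passed as lower and 2 as higher, and the share of higher calls among all calls over all probe sets went from 67.7% to 53.7%. In a bulk sample, fewer cells of a type and less RNA per cell cannot be told apart.

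The direction was shared by most members. The LSK minus MP difference was below 0 for 126 of the 153 members, where 50.4% of all probe sets were below 0. In the WT pool alone 120 were below 0 (52.9% of all probe sets), with a median of -0.13, and in the Smo-deficient pool alone 133 were (46.7% of all), with a median of -0.17. Members below 0 in both pools numbered 111 (37.6% of all probe sets) and members above 0 in both numbered 11 (38.1% of all). For 85 members both LSK arrays lay below both MP arrays, which held for 26.4% of all probe sets, and for 6 members both LSK arrays lay above, which held for 30.4%. Across the 153 members the difference in the WT pool and that in the Smo-deficient pool, which share no array, correlated with Pearson r = 0.72 and Spearman rho = 0.66; over all probe sets r was 0.81. These points include several probe sets of the same gene and share the amplification and sort.

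**Figure D1:**
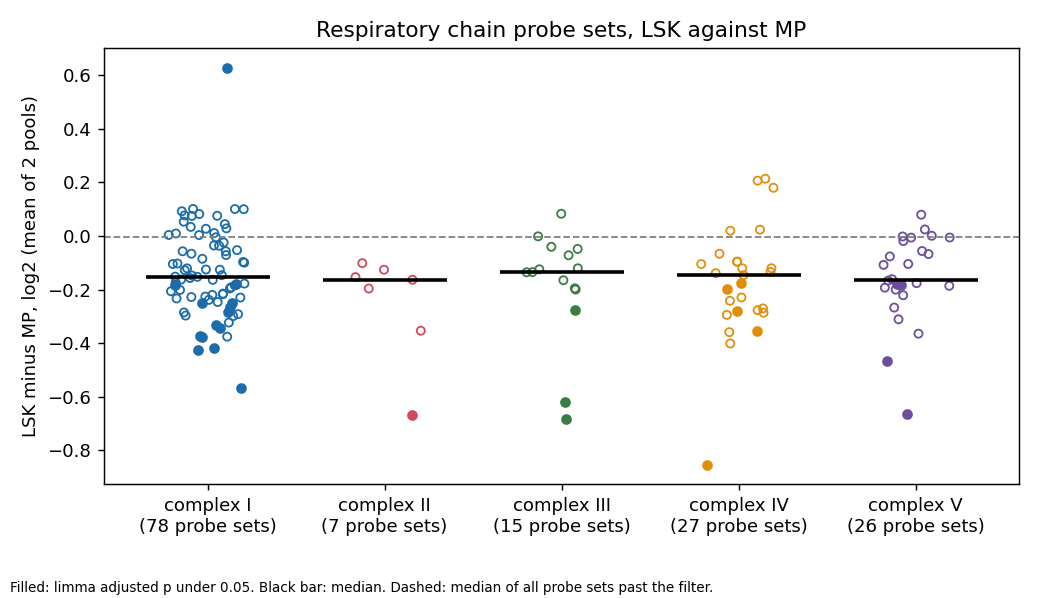
Each point is a member probe set past the filter, grouped by complex on the x axis, with the LSK minus MP difference (log2, mean of 2 pools) on the y axis. Filled points passed the limma test at an adjusted p of 0.05, black bars are medians (-0.13 to -0.16) and the dashed line is the median of all 22518 probe sets, -0.00. Most points lie below the dashed line in every complex, and the lowest, Cox6b2, is at -0.85.

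The medians of the 5 complexes ran from -0.13 (complex III) to -0.16 (complexes II and V), as the plot of LSK minus MP by complex shows. With 1 probe set per gene they ran from -0.10 (complex V) to -0.20 (complex III), so their order depended on the choice of probe sets. In complex I 13 of 78 probe sets passed as lower, in complex II 1 of 7, in complex III 3 of 15, in complex IV 5 of 27 and in complex V 4 of 26. The probe sets that passed as lower belonged to 21 genes. With 1 probe set per gene, 17 of 85 genes passed as lower and 0 as higher by limma, the probe set that passed as higher not being the brightest of its gene. Where a gene had several probe sets past the filter they mostly pointed the same way: of 46 such genes, 37 had 1 sign throughout, 35 of them lower in LSK.

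The members at least 1.5-fold lower came from complexes II to V. Cox6b2, known as the testis isoform of a peripheral complex IV subunit, was at log2 intensities of 8.88 and 8.70 in LSK and 9.67 and 9.61 in MP, WT before Smo-deficient. Both LSK arrays lay below both MP arrays, and the difference was -0.85 ± 0.11 (SE), 1.81-fold lower, at an adjusted p of 0.00348 by limma. Cox6b1, the widely expressed isoform of the same subunit, passed as lower on both of its probe sets by smaller amounts, -0.20 and -0.28.

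Sdhd, the membrane anchor of succinate dehydrogenase (complex II), was at 12.11 and 11.87 in LSK and 12.83 and 12.48 in MP on probe set 1428235_at. The populations did not overlap, and the difference was -0.67 ± 0.08 (SE) at an adjusted p of 0.00237 by limma. Its dimmer probe set, 1437489_x_at, differed by -0.35 and did not pass. The other complex II genes differed by less and none passed: Sdha, the flavoprotein subunit, by -0.10, Sdhb, the iron-sulfur subunit, by -0.15, and Sdhc, the other anchor, by -0.20. The Sdhd gene lies at chr9:50596340-50603849 in GRCm38.p6.

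In complex III, Uqcr11, a small accessory subunit (chr10:80402997-80406821), was at 12.47 and 12.26 in LSK and 13.08 and 12.89 in MP. Neither LSK array reached the lower MP array, and the difference was -0.62 ± 0.07 (SE) at an adjusted p of 0.00190 by limma. Uqcrq, the ubiquinone-binding-protein subunit (chr11:53427922-53430831), was at 11.40 and 11.05 in LSK and 11.98 and 11.84 in MP on its brightest probe set, 1430326_s_at. That probe set differed by -0.68 ± 0.10 (SE; adjusted p 0.00497, limma), but the other 3 Uqcrq probe sets, all with much weaker signal, differed by -0.13 to 0.08 and did not pass. The probe sets of Uqcrq therefore disagree. Uqcrh, the hinge protein, passed as lower by -0.28 on the brighter of its probe sets. The core proteins Uqcrc1 (-0.20) and Uqcrc2 (-0.04) and the Rieske protein Uqcrfs1 (-0.20) did not pass.

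**Figure D2:**
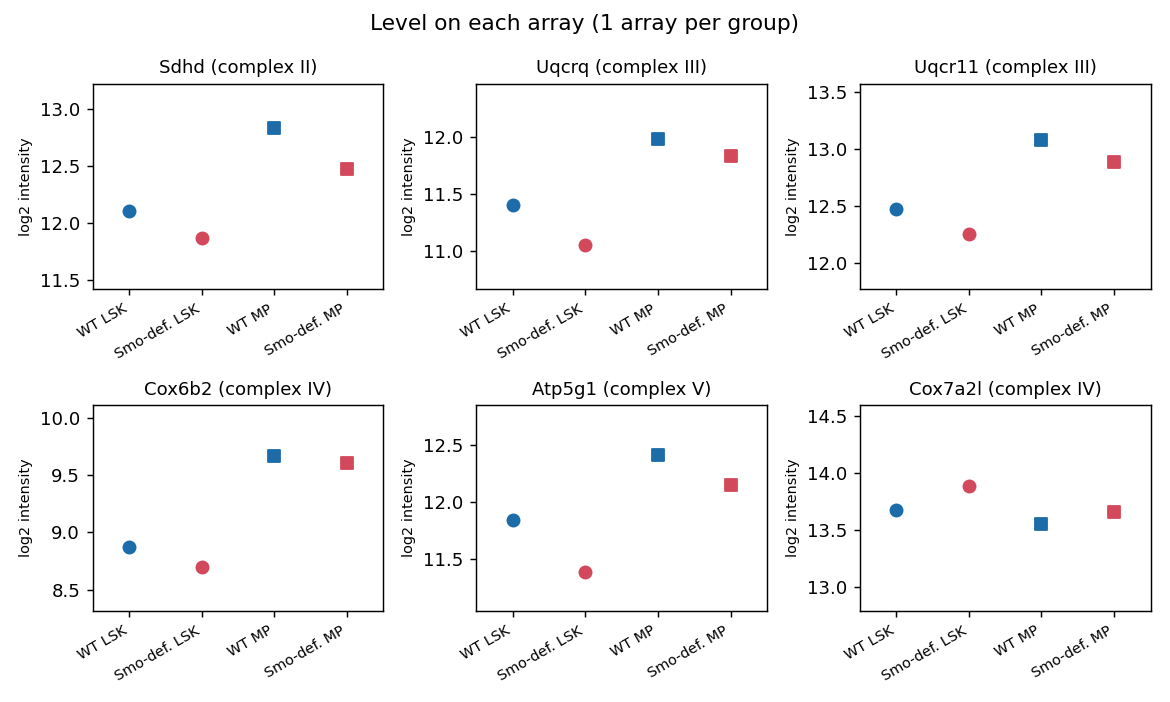
Log2 intensity (y axis) of the brightest probe set of 6 genes on each of the 4 arrays (x axis), circles for LSK and squares for MP, blue for WT and red for Smo-deficient; there are no error bars since each group is 1 array. In Sdhd, Uqcrq, Uqcr11, Cox6b2 and Atp5g1 both LSK points lie below both MP points, and in Cox7a2l the highest point is Smo-deficient LSK at 13.89.

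In the ATP synthase, Atp5g1, which encodes the proton-carrying c subunit of the membrane ring (chr11:96072793-96075694), was at 11.84 and 11.39 in LSK and 12.41 and 12.15 in MP. The populations did not overlap and the difference was -0.66 ± 0.09 (SE) at an adjusted p of 0.00396 by limma. Atp5g2 and Atp5g3 encode the same mature c subunit and differed by 0.00 and -0.11, neither passing. Whether Atp5g1 differs from these paralogs was not tested. In the catalytic head, the beta subunit Atp5b passed as lower by -0.18, and the alpha subunit Atp5a1 passed on 1423111_at by -0.18 but not on its brighter probe set, which was at -0.02. The stalk subunit Atp5pb likewise passed on 1426742_at (-0.47) and was at -0.01 on its brighter probe set. The gamma subunit Atp5c1, part of the rotor, differed by 0.02, and Atp5o, which holds the head to the stator, by -0.27 and -0.36, without passing.

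In complex I the redox core, taken here as the subunits that hold the flavin or an iron-sulfur cluster and the core subunit Ndufs3, which holds neither, had a median of -0.13 over 16 probe sets, of which 3 passed as lower. Ndufs1, the largest of these subunits, was at 11.68 and 11.32 in LSK and 12.09 and 11.66 in MP and passed as lower by -0.37. Ndufs3 passed as lower by -0.33, and Ndufv1, the NADH-binding subunit, passed on 1415967_at (-0.27) but not on its other probe sets (-0.20 and -0.10). Ndufs7 (-0.16) and Ndufv2 (-0.10) did not pass. The brightest probe set of Ndufs8 differed the other way, 0.08, without passing.

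The Ndufaf genes encode assembly factors that build complex I and are not part of the finished enzyme. Their 10 probe sets had a median of -0.26 in LSK minus MP, with 9 below 0 and 3 passing as lower. Ndufaf8 passed on both of its probe sets, by -0.57 and -0.34, and Ndufaf6 by -0.43. Ndufaf4 (-0.32) and Ndufaf1 (-0.29) did not pass. The remaining complex I subunits had a median of -0.13 over 51 probe sets, 7 of which passed as lower. Among these, Ndufa5 passed on both of its probe sets (-0.38 and -0.42), as did Ndufb6 (-0.25 and -0.28), and Ndufa1, which is needed for assembly of the membrane arm, passed by -0.18.

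The only member probe set that passed as higher in LSK was 1418117_at of Ndufs4, an accessory complex I subunit, at 8.87 and 8.81 in LSK and 8.10 and 8.31 in MP. It differed by 0.63 ± 0.12 (SE) at an adjusted p of 0.0130 by limma. The brightest Ndufs4 probe set, 1448959_at, was at 11.02 and 10.90 in LSK and 11.34 and 11.15 in MP, a difference of -0.29 in the other direction that did not pass. The Ndufs4 probe sets thus gave no single direction for the gene.

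In complex IV, the widely expressed subunits Cox4i1 and Cox5a were close between populations. Cox4i1 differed by -0.10 and Cox5a by 0.02, neither passing, while Cox5b passed on 2 of its 5 probe sets past the filter (-0.17 and -0.35). Of the tissue or condition isoforms, Cox6b2 passed. Cox4i2, known as the lung and low-oxygen isoform, was at 7.42 to 7.84 over the 4 arrays and Cox6a2, the heart and muscle isoform, at 7.72 to 8.19, and neither passed. The common isoforms Cox6a1 (-0.13), Cox7a2 (-0.15) and Cox8a (-0.27) did not pass on their brightest probe sets, nor did Cox8c (-0.07). Cox7a1, Cox7b2 and Cox8b stayed below the filter. Ndufa4, grouped with complex I by its symbol but known as a complex IV subunit, differed by 0.00, and its paralog Ndufa4l2, known to be induced by low oxygen, by -0.24 without passing.

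Cox7a2l, a factor that joins complexes III and IV into supercomplexes (chr17:83501917-83514333), stood on the other side. Its 3 probe sets differed by 0.18 to 0.21 in LSK minus MP. On the brightest it was at 13.67 and 13.89 in LSK and 13.55 and 13.65 in MP, so both LSK arrays lay above both MP arrays by a small margin. None of its probe sets passed (adjusted p 0.0594 on the brightest, limma), though the brightest did under quantile normalization (0.0417) and cyclic loess (0.0492).

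Genes outside the set but of the same pathway were read on 1 probe set each. Beside the counts below, 7.19% of all probe sets passed as lower and 15.1% as higher. The only mitochondrially encoded subunit matched on the array, listed as ND5, differed by -0.25 in LSK minus MP and did not pass. Of 12 genes for electron carriers and ubiquinone synthesis, 3 passed as lower and 1 as higher, with a median of -0.14. Those lower were Cycs, cytochrome c (-0.20), and Coq3 (-0.55) and Coq7 (-0.59) of ubiquinone synthesis, and the one higher was Coq8a (0.65), a kinase-like protein of that pathway. This list also holds Cyc1, the cytochrome c1 of complex III, whose symbol the rule for members leaves out (-0.19, not passing). Among 29 assembly genes of complexes II to V, 4 passed as lower and 0 as higher, namely Cox17 (-0.36), a copper chaperone, with Coa3, Coa5 and Coa7, and the median was -0.09. Of 8 further assembly genes of complex I, Dmac1 passed as lower by -0.37.

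The enzymes that feed the chain gave values of the same size. The same shares over all probe sets, 7.19% lower and 15.1% higher, apply to these lists. In the citric acid cycle and pyruvate dehydrogenase list 4 of 16 genes passed as lower and 0 as higher, with a median of -0.15: Idh3a (-0.30), Dlst (-0.41), Dlat (-0.54) and Pdhx (-0.45). In the mitochondrial ribosome, which translates the mitochondrially encoded subunits, 21 of 76 genes passed as lower and 0 as higher, with a median of -0.23. In the cytosolic ribosome 2 of 46 genes passed as lower and 1 as higher, with a median of 0.02. Among 18 regulators of mitochondrial genes, 1 passed as higher and 1 as lower, where 15.1% and 7.19% of all probe sets did. They were Gabpb1, a subunit of the GABP factor (0.89), and Atpif1, an inhibitor of the ATP synthase running in reverse (-0.45). Nrf1 (-0.04), Gabpa (0.18) and Tfam (-0.09), a mitochondrial DNA packaging factor, did not pass, and Ppargc1a was below the filter.

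Some markers of other cells differed between the populations, where 7.19% of all probe sets passed as lower in LSK and 15.1% as higher. Of 8 erythroid genes past the filter 6 passed as lower in LSK (Klf1, Epor, Car1, Car2, Rhag and Tfrc), with a median of -1.34 over the 8. The others, Alas2 (0.16) and Slc4a1 (0.14), were above 0 and did not pass. The log2 of the summed intensity of the erythroid list was 15.43 and 15.21 in LSK and 16.45 and 16.11 in MP. All 4 mast cell and basophil genes past the filter passed as lower, with summed levels of 12.08 and 12.52 in LSK and 12.93 and 13.36 in MP. The neutrophil, macrophage, B cell, and T and NK cell lists had medians of -0.02, -0.03, 0.01 and -0.06 over the mean of the 2 pools. For the first 3 lists the pools pointed in opposite directions. In the WT pool their medians were -0.20, -0.33 and -0.20, and in the Smo-deficient pool 0.20, 0.28 and 0.21. The T and NK cell list was at -0.05 and -0.08. In these, 1 macrophage gene passed as lower and 1 B cell gene as higher. Of 7 proliferation genes Plk1 and Ccne1 passed as lower, with a median of 0.01. The part of these cells, and of what the poly-A and hybridisation spikes show, in the respiratory chain differences was not tested.

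In LSK cells, Smo-deficient values lay slightly below WT values for most of the chain. The difference, Smo-deficient minus WT, was below 0 for 138 of the 153 members, where 53.3% of all probe sets were below 0. It was small. The median was -0.12 against -0.02 over all probe sets and -0.04 over those above the 90th percentile of level, and 0 members differed by 1.5-fold in either direction, while 3.06% of all probe sets passed that fold upward and 0.884% downward. These are differences between 2 arrays, with no replicate. Medians were -0.13 in complex I, -0.20 in complex II, -0.10 in complexes III and IV and -0.12 in complex V. Under cyclic loess the overall median was -0.08 with 127 members below 0, and complexes III, IV and V were at -0.05, -0.05 and -0.08. With 1 probe set per gene complex III was at -0.16. All 16 probe sets of the complex I redox core were below 0 (median -0.18), and so were all 10 of the assembly factors (median -0.17).

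On the brightest probe set of each gene, the most negative genotype difference in LSK was that of Atp5g1, at 11.84 in WT and 11.39 in Smo-deficient LSK (-0.45). It was followed by Ndufs1 (-0.36), Uqcrq (-0.35) and, in complex II, Sdhc (-0.32). Dimmer probe sets of Ndufaf4 (-0.35), Cox8c (-0.34) and Cox6a1 (-0.33) lay in the same range. On the positive side, over all probe sets past the filter, were the 3 probe sets of Cox7a2l, with 0.21 to 0.32, Cox6a2 (0.24) and a Ndufb11 probe set, 1416057_at (0.17). Cox7a2l was also above 0 under quantile normalization (0.22 to 0.36) and cyclic loess (0.27 to 0.36).

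**Figure D3:**
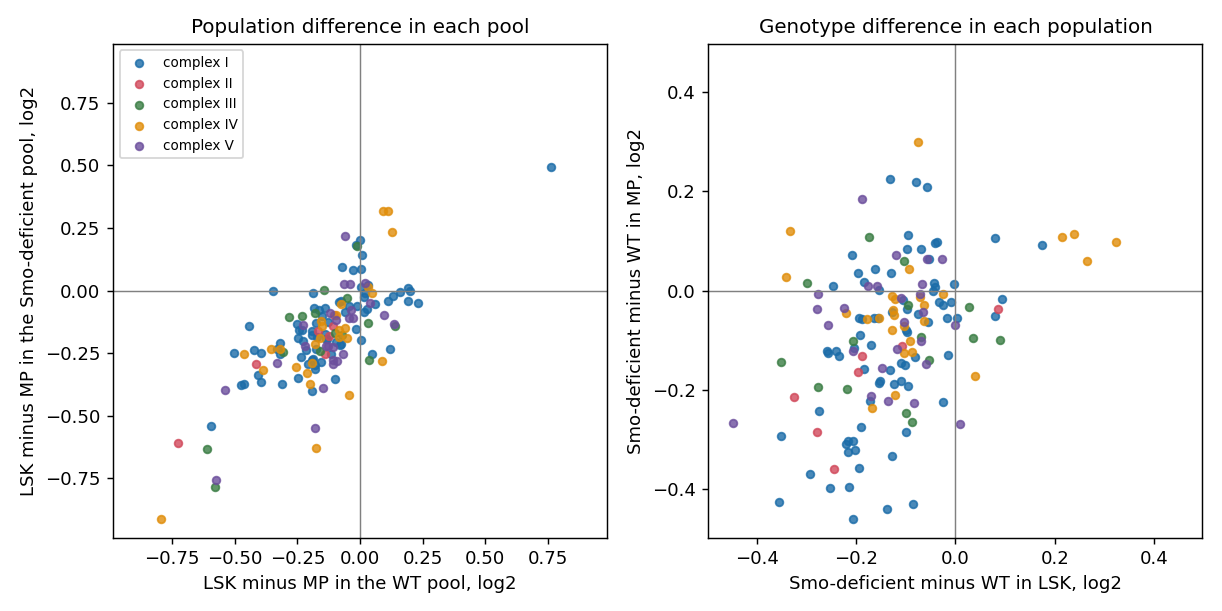
Left, LSK minus MP (log2) in the WT pool on the x axis and in the Smo-deficient pool on the y axis; right, Smo-deficient minus WT (log2) in LSK on the x axis and in MP on the y axis. Each of the 153 points is a member probe set coloured by complex. With values as deposited, 111 points on the left lie below 0 on both axes and 11 above 0 on both. On the right 105 lie below 0 on both, a count that depends on the scaling, and 6 above 0 on both.

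In MP cells the genotype difference was smaller and its direction depended on the scaling. Smo-deficient minus WT was below 0 for 114 of the 153 members, where 59.7% of all probe sets were below 0, and the median was -0.06 against -0.05 over all probe sets and -0.11 over those above the 90th percentile of level. Under quantile normalization of the log2 values the median was 0.01 with 75 members below 0, and under cyclic loess it was 0.03 with 66 below 0. By 1.5-fold 0 members differed, while 2.35% of all probe sets passed that fold upward and 2.63% downward. Hybridisation spikes had a mean log2 difference, Smo-deficient minus WT, of -0.33 in MP and 0.08 in LSK. Their part in the members' values was not tested.

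The median of the complex I assembly factors was below 0 in MP under each of 3 scalings. All 10 probe sets were below 0 as deposited (median -0.30), 9 under quantile normalization (-0.20) and 8 under cyclic loess (-0.18). Ndufaf1 (-0.44) and Ndufaf7 (-0.43) were the lowest of them. The redox core was at -0.11, -0.01 and -0.00 in the same order, and the other complex I subunits at -0.05, 0.03 and 0.05. The lists from outside the set are given as deposited only, where the medians over all probe sets were -0.05 in MP and -0.02 in LSK. A list of 8 further complex I assembly genes had a median of -0.36 in MP and -0.15 in LSK. The mitochondrial ribosome was at -0.26 in MP and -0.19 in LSK. Of its 76 genes, 73 and 69 were below 0, as were 59.7% and 53.3% of all probe sets. The cytosolic ribosome was at 0.01 in both.

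Single members in MP ranged from Ndufs5, an accessory complex I subunit, at 8.90 in WT and 8.44 in Smo-deficient cells (-0.46), to Cox4i2, at 7.54 and 7.84 (0.30). A brighter probe set that lists Ndufs5 beside Ndufs5-ps, not counted as a member, was at 10.70 and 10.50 (-0.20). Ndufs1 was at -0.42, close to its value in LSK, Ndufv1 at -0.39 and Sdhd at -0.36. Ndufa3, another accessory subunit, was at 13.52 in WT and 13.74 in Smo-deficient MP (0.22).

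Considering both populations, 105 members were below 0 in each (39.1% of all probe sets) and 6 above 0 in each (26.1% of all), as deposited. The count of 105 depended on the scaling, since 75 members were below 0 in MP under quantile normalization and 66 under cyclic loess. The genotype differences in LSK and in MP, which share no array, correlated over the 153 members with Pearson r = 0.39 and Spearman rho = 0.38, and over all probe sets with r = 0.51. The difference of the differences, LSK minus MP, had a median of -0.03. It has no residual degree of freedom and was not tested.

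**Figure D4:**
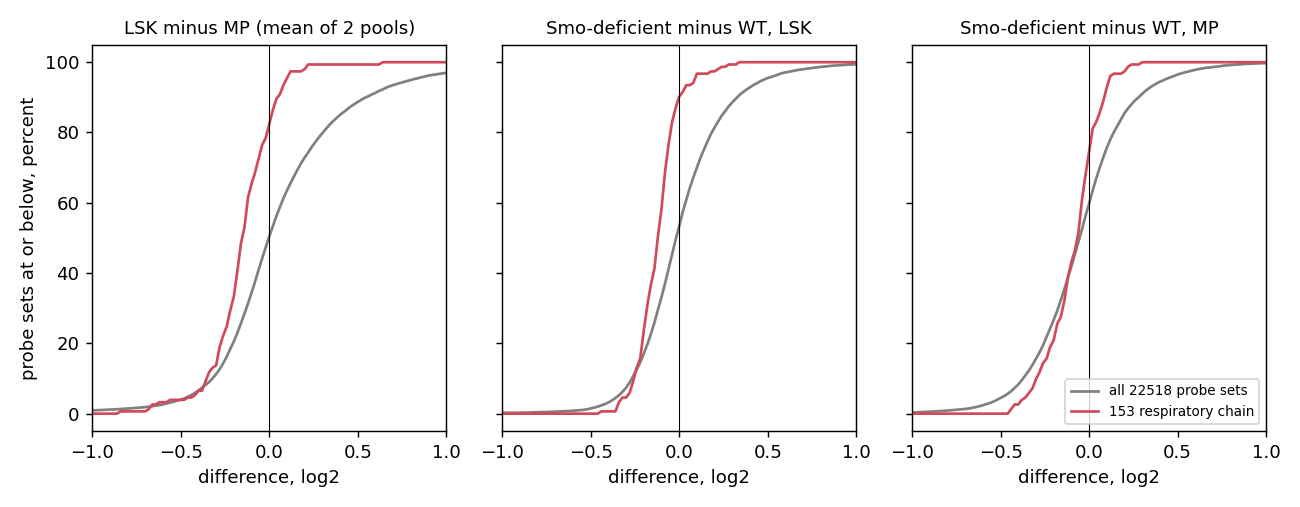
Percent of probe sets (y axis) at or below a given log2 difference (x axis) for the 153 members (red) and all 22518 probe sets past the filter (grey), for LSK minus MP, Smo-deficient minus WT in LSK and Smo-deficient minus WT in MP. In the left and middle panels the red curves cross 0 at 82.4% and 90.2% against 50.4% and 53.3% for the grey curves.

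As the cumulative curves show, no member was at least 2-fold apart in LSK minus MP or between genotypes, and the range over members was -0.85 to 0.63 in LSK minus MP, -0.45 to 0.32 for genotype in LSK and -0.46 to 0.30 in MP.

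Markers of mature cells and of the sorted populations also differed between the genotypes. Smo-deficient LSK lay above WT LSK by a median of 0.79 over 9 neutrophil genes, 0.67 over 8 macrophage genes and 0.58 over 6 B cell genes, and the corresponding values in MP were 0.21, 0.11 and 0.26. The 4 mast cell and basophil genes had medians of 0.35 in LSK and 0.44 in MP. Of the genes used to check the sort, Flt3 differed by 1.21 in LSK and 0.95 in MP, Fcgr3 by 1.27 and 1.09 and Cd34 by 0.41 and 0.63. Of the 8 sort genes, 1 was below 0 in LSK (Slamf1, -0.51) and 1 in MP (Mecom, -0.54). The log2 summed intensity of the neutrophil list was 16.33 in WT and 17.02 in Smo-deficient LSK, and 16.62 and 16.82 in MP. Of the 7 proliferation genes, 7 lay below 0 in LSK and 6 in MP, with medians of -0.29 and -0.35. The erythroid list was at -0.09 in LSK and -0.40 in MP. The part of these cells in the genotype differences of the chain was not tested.

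The 26 member probe sets below the filter had LSK minus MP differences from -0.38 to 0.62. Ndufb4, Cox7a1, Cox7b2, Cox7c and Cox8b had no single-gene probe set above it. The most negative genotype differences among them were on the Uqcr10 probe set 1434340_at, at 7.12 in WT and 6.36 in Smo-deficient LSK (-0.76) and 7.31 and 6.65 in MP (-0.66). The brightest Uqcr10 probe set differed by -0.30 in LSK and 0.01 in MP. A further 10 probe sets list a member beside another gene and were not counted as members.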

How the data were processed

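The study profiled 4 samples on Affymetrix mouse arrays. The authors deposited 1 table of intensity values, made with RMA per the submitters' processing notes, with no version given in the sources used here. RMA as usually run subtracts background, equalises the probe distributions of the arrays and summarises probes, which can remove a change shared by most genes. The deposited intensity values ran from 12.3 to 44290.5 on a linear scale, with array medians from 149.4 to 150.4 but upper quartiles from 545.0 to 611.6, so the deposited distributions were not equal and how they were scaled is unknown. From these values log2 was taken without a pseudocount. Of 45101 probe sets, 64 controls were set aside, and of the other 45037, 34945 had 1 gene in the platform annotation, 932 several and 9160 none named. All 90 member genes matched the RefSeq mouse table (GRCm38.p6), which also gave the promoters; 16 genes had no promoter entry.

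LSK was tested against MP with limma 3.58.1 in R 4.3.3 (lmFit, eBayes with a trend, two-sided), pool as a block, on the 22518 probe sets above the 50th percentile. Genotype differences were not tested. The code was tested on simulated data. The pairing comes from the labels: both populations of a genotype were sorted from the same pooled marrow. The labels do not give separate cultures or animals per array, and the precision is limited by having 4 arrays.

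The members, the gene lists and the rule for named genes were chosen with earlier results of these data known. That rule took the brightest probe set of each gene: the most positive and most negative member of each complex in each comparison, every member at least 1.5-fold apart, the catalytic and redox subunits, the tissue isoforms and Smo. Other genes named (the complex I assembly factors, members that passed on some probe sets, probe sets below the filter) were named after their values were seen. Alternatives were quantile normalization, cyclic loess, other filters, no block, no trend, other probe set choices, a pseudocount of 16, a 2-fold threshold and the members without assembly factors. Added after the data were seen were centring on the median of 20 level bins and adding the probe sets that list a member beside another gene.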

Additional observations from a re-analysis of the deposited data

Results flagged for a closer look

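Ndufa3, an accessory subunit of complex I, had genotype differences of opposite sign in the 2 populations. Smo-deficient minus WT was -0.13 in LSK and 0.22 in MP on its brightest probe set, and -0.08 and 0.22 on the other probe set past the filter. Opposite signs were not particular to Ndufa3. As deposited, 105 of the 153 members were below 0 in both populations and 6 above 0 in both. Cox4i2 (-0.08 in LSK and 0.30 in MP) and the Cox6a1 probe set 1417418_s_at (-0.33 and 0.12) had wider gaps. Each value compares 1 array with 1 array, and the difference between LSK and MP was not tested.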

How the results depend on the processing

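The number of members passing as lower in LSK, 26, was 40 under quantile normalization, 16 with no filter, 17 with 1 probe set per gene, 9 without the trend and 9 without probe sets ending in _s_at, _x_at or _a_at. Without the pool as a block 1 member passed as lower (Cox6b2, adjusted p 0.0309, limma) and 0 as higher, with 24 lower at an unadjusted p under 0.05. The number passing as higher, 1, was 2 under quantile normalization, cyclic loess, no filter and the filter at the 25th percentile, and 0 with 1 probe set per gene. All 27 calls were shared under quantile normalization and 26 under cyclic loess. Over all probe sets the share of calls that were higher was 67.7% as deposited and 53.7% under quantile normalization, with counts of 3395 higher and 1618 lower against 2986 and 2570. Members at least 1.5-fold lower by genotype, 0 in both populations, were 1 in LSK and 2 in MP with no filter and with the filter at the 25th percentile. The complex IV median of LSK minus MP was -0.28 without the suffixed probe sets. The MP genotype median over all members was 0.0067 under quantile normalization, 0.031 under cyclic loess and 0.0036 after level-bin centring, for complex I 0.0071 under cyclic loess, for complex II -0.0406 under quantile normalization and -0.0417 under cyclic loess, for complex IV 0.0218 and 0.0692, and for complex V 0.0167 and 0.0465. The difference of genotype differences was 0.0038 without the suffixed probe sets. The cause was not tested. Leaving out a replicate was not run, each group being 1 array; values within each pool stand in its place.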
